A study of Mus musculus with 47 samples.

Results

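Crypt epithelium of mice that lack p21 was compared directly with crypt epithelium of mice that carry 1 mutant copy of Apc, with no wild-type sample in the difference. The comparison holds the 4 arrays labelled as p21-/- crypts and the 4 labelled as Apc1638N/+ crypts, which are 8 of the 47 arrays of the study. Both groups were C57BL/6 mice on the purified diet Ain76A, and both were 3 months old by their labels. The remaining arrays hold wild-type crypts, villi of each genotype, and crypts and villi of older wild-type mice given Ain76A or other diets. Total RNA was hybridized to an Affymetrix 3' expression array, and each value is a log2 level of a probe set, a group of short probes for a transcript. Differences below are log2 p21-/- minus Apc1638N/+ ± SE, so a positive value is higher in p21-/- crypts, and 1 unit is a doubling.

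The gene Cdkn1a encodes p21, which binds cyclin-dependent kinases and holds cells before DNA synthesis, and p53 is its best known activator. Apc encodes a scaffold of the complex that marks beta-catenin for destruction, so it restrains Wnt signalling, the signal that keeps crypt cells dividing. The Apc1638N allele is a germline truncating mutation, and mice with 1 copy develop intestinal tumours. Crypts are the dividing compartment of the epithelium, with stem cells and Paneth cells at the base. Neither genotype is tissue-specific, so cells other than epithelium carry the same alleles. The labels do not say how many animals gave each sample, so p-values rest on the spread between arrays. For the tests of probe sets that spread was pooled over all 12 groups of arrays in the study.

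The arrays carried the RNA of crypts. Of 12 crypt markers, 11 were measured on all 8 arrays, and 11 had a higher mean there than in villi of the same genotypes, among them Lyz1 of Paneth cells, Olfm4 of the crypt base and Mki67 of dividing cells. Ascl2 was blank on every villus array compared. The 8 villus markers had the higher mean in villi, by a wide gap for Ada (15.78 in villi, 10.81 in crypts) and a small one for Fabp1 (16.38 and 16.27). Alpi, Lct and Apoa4 were also high on the crypt arrays, at means of 13.83, 13.77 and 14.17 (15.63, 15.33 and 15.98 in villi). The number of measured probe sets was 14758 to 17315 on p21-/- arrays and 15418 to 21855 on Apc1638N/+ arrays (exact permutation test, two-sided, adjusted p = 0.629). The level of the 18S ribosomal RNA control was 13.72, 13.33, 14.37 and 10.18 on the p21-/- arrays and 11.64, 11.84, 10.05 and 8.82 on the Apc1638N/+ arrays (exact permutation p = 0.0857, adjusted p = 0.514 over 6 array measures). With 4 arrays against 4 the smallest p this test can give is 0.0286. Apc1638N/+ array 4 had the most measured probe sets and the lowest 18S level, spike-in level (12.75) and crypt-villus score (0.55, the mean of crypt-higher minus villus-higher genes), and results that rest on it are given without it.

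**Figure D1:**
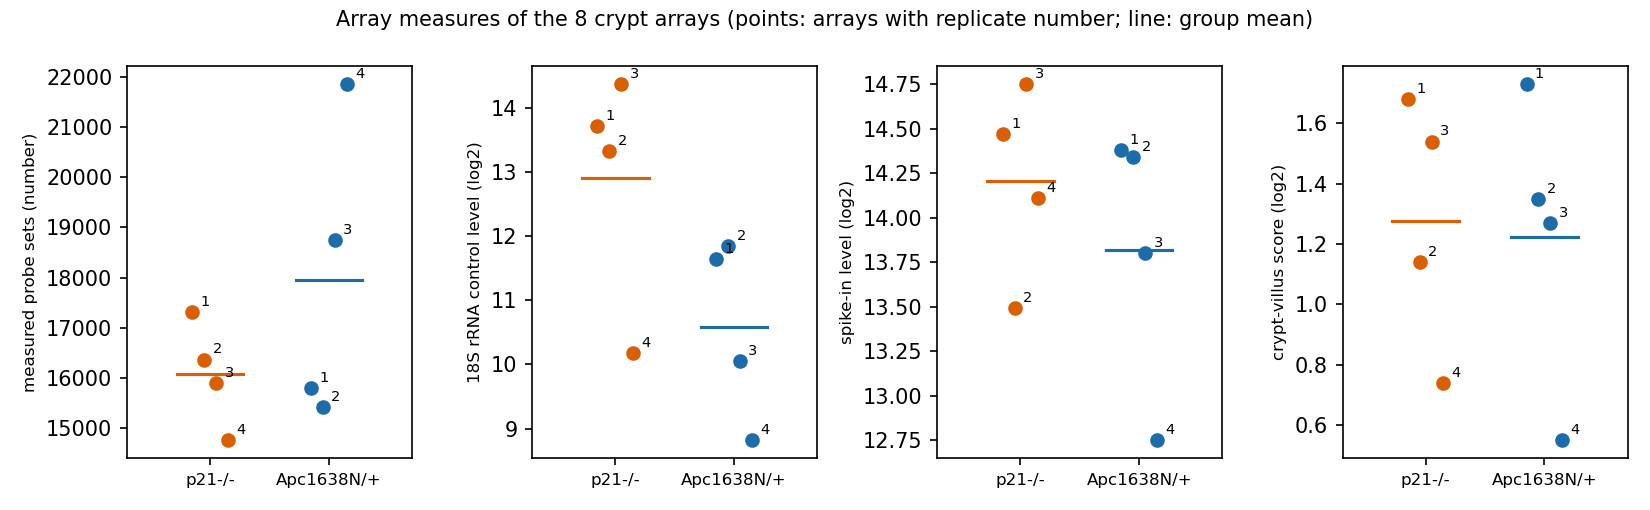
Measured probe sets, 18S ribosomal RNA control level, spike-in level and crypt-villus score (each log2 except the number of probe sets) for the 4 p21-/- and 4 Apc1638N/+ crypt arrays, with replicate numbers at the points and the group mean as a line. Apc1638N/+ array 4 is the highest of 8 in measured probe sets, at 21855, and the lowest in the other 3 measures.

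The targeted genes were examined first. One of the 2 probe sets of Cdkn1a was blank on all 4 p21-/- crypt arrays and on all 4 p21-/- villus arrays. On the Apc1638N/+ crypt arrays it stood at 9.88, 10.50, 8.85 and 10.63, and wild-type crypts averaged 9.12 ± 0.52 (SD, n = 4). Among 45037 probe sets it was the only 1 measured on every Apc1638N/+ array and blank on every p21-/- array in both tissues, and 0 probe sets had the opposite pattern. The other Cdkn1a probe set was measured on all 8 arrays, at 11.24, 11.81, 11.57 and 12.17 in p21-/- crypts and 11.85, 11.52, 12.68 and 11.79 in Apc1638N/+ crypts. Those groups overlap, and the difference was -0.26 ± 0.25 (limma, adjusted p = 0.653). Where either probe set lies relative to the deleted part of the gene is not known from the labels. Apc itself did not pass the test. Its best measured probe set was at 10.67, 10.65, 10.20 and 10.27 in p21-/- crypts and 10.92, 10.96, 10.24 and 10.82 in Apc1638N/+ crypts (-0.28 ± 0.20, adjusted p = 0.509), and a truncated transcript could still bind such probes.

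Few transcripts separated the genotypes. Of 12720 probe sets tested with limma, 28 passed at an adjusted p under 0.05, which is 0.22%. In p21-/- crypts 15 were higher (0.118%) and 13 lower (0.102%). At an unadjusted p under 0.05 there were 1918 (15.1%), of which 1173 were higher (9.22%) and 745 lower (5.86%), and the median difference of all probe sets was 0.03. The called genes do not share a single role: they include RNA-binding and splicing proteins, ubiquitin ligase components, zinc-finger and ETS transcription factors and proteins of DNA repair. These calls rested on the spread pooled over 12 groups of arrays, since a fit on the 8 arrays alone called 0 (606 at an unadjusted p under 0.05). Leaving out p21-/- array 1, 2, 3 or 4 gave 130, 13, 7 or 35 calls, and leaving out Apc1638N/+ array 1, 2, 3 or 4 gave 78, 49, 777 or 3, and the 777 included all 28.

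Zfp943, a zinc-finger gene of the KRAB class, fell furthest beyond its spread. Its levels were 8.12, 8.60, 7.98 and 8.45 in p21-/- crypts and 9.91, 9.38, 9.67 and 10.01 in Apc1638N/+ crypts. Every p21-/- array lay below every Apc1638N/+ array, and wild-type crypts, at 9.70 ± 0.49 (SD, n = 4), lay with the Apc1638N/+ group. The difference was -1.45 ± 0.21 (adjusted p = 3.34e-04). Nabp1, a single-strand DNA binding subunit of a complex that acts in double-strand break repair, fell by 1.91 on the log2 scale (SE 0.32, adjusted p = 0.00332). It was measured at 8.30, 7.15 and 6.96 in p21-/- crypts and 9.45, 9.18 and 9.50 in Apc1638N/+ crypts, with 1 blank array in each group. Its 2 other tested probe sets differed by -0.61 and -0.24. Zfp943 and Nabp1 were called whichever of the 8 arrays was left out, and no other probe set was; with the number of measured probe sets as a covariate they were the only 2 calls (adjusted p = 0.00446 and 0.0143).

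Dnajc17, Pabpn1 and Rogdi rose in p21-/- crypts without overlap between the groups. Dnajc17, a co-chaperone tied to splicing, was at 13.88, 13.79, 14.22 and 13.68 in p21-/- crypts and 13.30, 13.03, 12.16 and 10.65 in Apc1638N/+ crypts (1.60 ± 0.37, adjusted p = 0.0431). Pabpn1, the nuclear poly(A)-binding protein, was at 14.37, 15.42, 14.32 and 14.32 against 14.22, 13.55, 12.90 and 12.65 (1.28 ± 0.29, adjusted p = 0.0431). Here the gap between the groups was narrow, and the 3 other tested Pabpn1 probe sets differed by 0.07, 0.46 and -0.37. Rogdi was at 10.94, 10.58, 10.56 and 10.29 against 10.08, 9.73, 9.07 and 8.47 (1.25 ± 0.28, adjusted p = 0.0404). In these 3 genes Apc1638N/+ array 4 was the lowest of the 8. Without it the differences were 1.06 for Dnajc17, 1.05 for Pabpn1 and 0.96 for Rogdi (adjusted p = 0.415, 0.391 and 0.391), and all 3 also lost their calls without p21-/- array 2 or 3, and Dnajc17 without p21-/- array 4. Over all leave-outs Dnajc17 differed by 1.06 to 1.94 and Pabpn1 by 1.00 to 1.57. The 18S level was also lowest on Apc1638N/+ array 4 (8.82). On p21-/- array 4 it was 10.18, below the 11.64 and 11.84 of Apc1638N/+ arrays 1 and 2. With it as a covariate, added after seeing the data, the differences were 1.10, 1.03 and 0.97 (adjusted p = 0.158, 0.111 and 0.112). Whether the 18S level accounts for these differences was not tested.

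Fbxo7, an F-box protein that selects substrates for a ubiquitin ligase, had the tightest groups of the genes that rose. It was at 10.11, 9.77, 9.88 and 9.94 in p21-/- crypts and 8.91, 9.22 and 8.93 on the 3 Apc1638N/+ arrays that measured it (0.91 ± 0.18, adjusted p = 0.023). It was called in 7 of 8 leave-outs, and lost without Apc1638N/+ array 4 (0.86, adjusted p = 0.21). Tmed6, a member of the p24 family of secretory pathway proteins, had the largest rise, 1.81 ± 0.37 (adjusted p = 0.0395), from 7.74, 7.14 and 6.01 in Apc1638N/+ crypts (1 array blank) to 8.47, 8.85, 8.62 and 9.14, and was called in 4 of 8 leave-outs (adjusted p up to 0.391). Eif2ak2, the kinase that halts translation on double-stranded RNA, rose by 1.41 ± 0.31 (adjusted p = 0.0404) on 1 probe set, while its 2 other tested probe sets differed by 0.05 and -0.32. A1cf, the cofactor of apolipoprotein B mRNA editing, was higher by 1.25 ± 0.26 (adjusted p = 0.0395) with overlapping arrays. The remaining rises were Zscan22 (1.25), 9130019O22Rik (1.14), Rabl6 (1.13), Tbl3 (1.04), Ndst2 (1.03), Ankra2 (1.02), Rtf2 (0.99) and a probe set without a gene symbol (1.68), each called in 3 to 5 of 8 leave-outs.

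Nufip2 and Sertad2 fell in p21-/- crypts, again without overlap. Nufip2, an RNA-binding partner of the fragile X protein, was at 10.70, 9.88, 9.93 and 10.81 in p21-/- crypts and 11.06, 11.54, 10.85 and 11.80 in Apc1638N/+ crypts (-0.98 ± 0.19, adjusted p = 0.023). The groups were separated by a small gap, and its other tested probe sets differed by -0.10 and -0.33. Sertad2, a transcriptional coregulator, was at 9.67, 9.81, 9.65 and 10.36 against 10.81, 10.38, 10.53 and 10.90 (-0.78 ± 0.17, adjusted p = 0.0395), while its other tested probe set differed by 0.07. Without Apc1638N/+ array 4 both had an adjusted p of 0.21, at -0.82 for Nufip2 and -0.70 for Sertad2, and both were also lost without p21-/- array 2 or 3. Etv3, an ETS-family repressor, fell by 1.41 on the log2 scale (SE 0.28, adjusted p = 0.0296), although its p21-/- arrays (7.04 to 9.13) and Apc1638N/+ arrays (8.79 to 10.31) overlap, and it was lost without p21-/- array 3 or Apc1638N/+ array 4 (adjusted p = 0.111 and 0.21). Lig4, the ligase that joins DNA ends, fell by 1.55 (SE 0.35, adjusted p = 0.0444), with 7.75 the highest of 3 p21-/- arrays and 7.99 the lowest of 4 Apc1638N/+ arrays. Its lowest p21-/- array, array 1, was at 5.84, and without it Lig4 differed by -0.96 (adjusted p = 0.134); it was called in 4 of 8 leave-outs. The other falls were Pura (-1.36), Riok2 (-1.41), Mtm1 (-1.27), Bclaf1 (-1.23), Chm (-0.95), Luc7l (-0.83) and Arel1 (-0.79), each called in 3 to 5 of 8 leave-outs. Over all 28 probe sets, 11 of the 15 higher and 8 of the 13 lower showed no overlap, beside 2.38% and 1.61% of all probe sets tested. The 28 were called on these same arrays, so a higher share without overlap follows from the call and is no separate evidence. Without Apc1638N/+ array 4, 25 of the 28 were lost, and Zfp943, Nabp1 and Luc7l were kept.

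**Figure D2:**
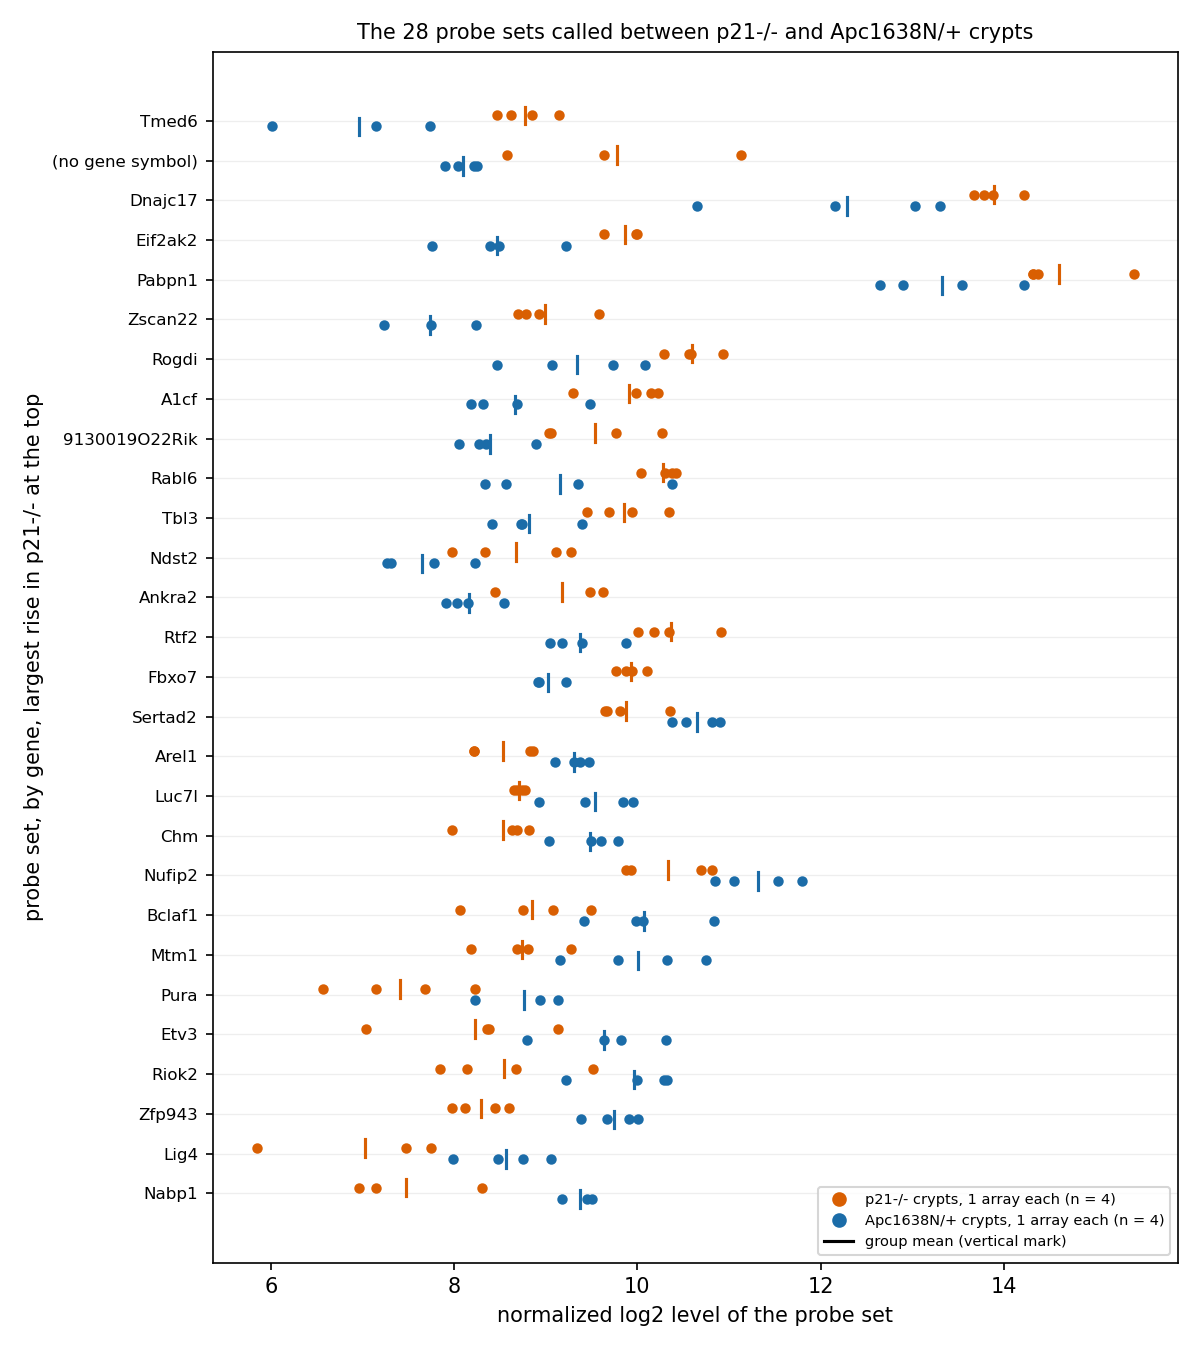
Normalized log2 level of the 28 called probe sets on each p21-/- array (orange) and each Apc1638N/+ array (blue), with group means as vertical marks. The groups of Zfp943 are wide apart, at 8.60 and below against 9.38 and above, while those of A1cf, Rabl6, Etv3 and Riok2 overlap.

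The share of genes that differed in both crypts and villi was larger near Cdkn1a than elsewhere. The villus arrays are separate arrays of the same genotypes, but the labels do not say whether the same mice gave both tissues. Both tests also used the spread pooled over all 12 groups, so the same sign in both tissues is not an independent repeat. Of 363 probe sets within 20 Mb of Cdkn1a (positions from RefSeq on GRCm38.p6), 4 were called in crypts, 1.1% beside 0.212% of the 10870 placed elsewhere. They belong to Zfp943, Tbl3, Luc7l and Riok2. At an unadjusted p under 0.05 in both tissues with the same sign there were 23 of 339 (6.78%) near Cdkn1a and 216 of 10166 (2.12%) elsewhere, and 1 and 11 with opposite signs. Within 10 Mb it was 21 of 261 (8.05%), with 0 of opposite sign. Within 20 Mb of Apc there were 2 of 156 (1.28%), and 1 called probe set in crypts, that of Pura. No test was made of these shares, because neighbouring genes are not independent.

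Tbl3, a component of the machinery that processes ribosomal RNA, was the only gene near Cdkn1a that was higher and called in both tissues. In crypts it was at 9.69, 9.45, 9.94 and 10.35 in p21-/- and 8.74, 8.73, 9.40 and 8.41 in Apc1638N/+ mice (1.04 ± 0.24, adjusted p = 0.0431). In villi it was at 8.84, 9.02, 8.97 and 9.34 against 7.83, 7.77, 8.02 and 7.23 (1.33 ± 0.24, adjusted p = 0.00728). Wild-type crypts averaged 9.05 ± 0.46 for Tbl3 (SD, n = 4), nearer the Apc1638N/+ mean of 8.82 than the p21-/- mean of 9.86. Wild-type villi averaged 8.68 ± 0.32 (SD, n = 4), nearer the p21-/- mean of 9.05 than the Apc1638N/+ mean of 7.71. Zfp943 fell in villi as well, from 10.51, 10.25, 10.22 and 10.18 to 8.50, 9.29, 9.08 and 8.88 (-1.35 ± 0.21, adjusted p = 0.00234). Neither gene's arrays overlap in either tissue. Tbl3 in crypts was called in 3 of 8 leave-outs, and lost without p21-/- array 3 or 4 or Apc1638N/+ array 1, 2 or 4 (0.87 to 1.23 over all leave-outs, adjusted p up to 0.32). Luc7l, which takes part in splice site choice, and Riok2, a kinase of small ribosomal subunit maturation, fell in crypts (-0.83 ± 0.19, adjusted p = 0.044, and -1.41 ± 0.31, adjusted p = 0.0395), with villus differences of -0.45 and -0.91 that did not pass (adjusted p = 0.444 and 0.322). Each was called in 3 of 8 leave-outs, with adjusted p up to 0.0979 for Luc7l and 0.21 for Riok2. Only 1 probe set of each fell, and the other tested probe sets differed by 0.07 and 0.27 for Luc7l and 0.24 for Riok2.

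The 23 probe sets near Cdkn1a belong to 22 genes, with 14 probe sets higher and 9 lower in p21-/- crypts. Apart from the 4 called, none passed the adjusted test. On the higher side Srrm2, a splicing scaffold, differed by 1.25 ± 0.32 in crypts and 0.82 in villi, Fkbpl by 1.10 and 0.77, and the glyoxalase gene Glo1 by 0.62 and 0.72. Both tested probe sets of Capn15 were higher, by 0.68 and 0.84 in crypts and 0.58 and 0.78 in villi. On the lower side Pgap6 differed by -0.93 and -0.91 and Hagh, which completes the glyoxalase pathway, by -0.81 and -0.74. Zfp758, a zinc-finger gene like Zfp943, differed by -0.88 and -0.69. The heat shock genes Hspa1a and Hspa1b also lie in this window. 

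**Figure D3:**
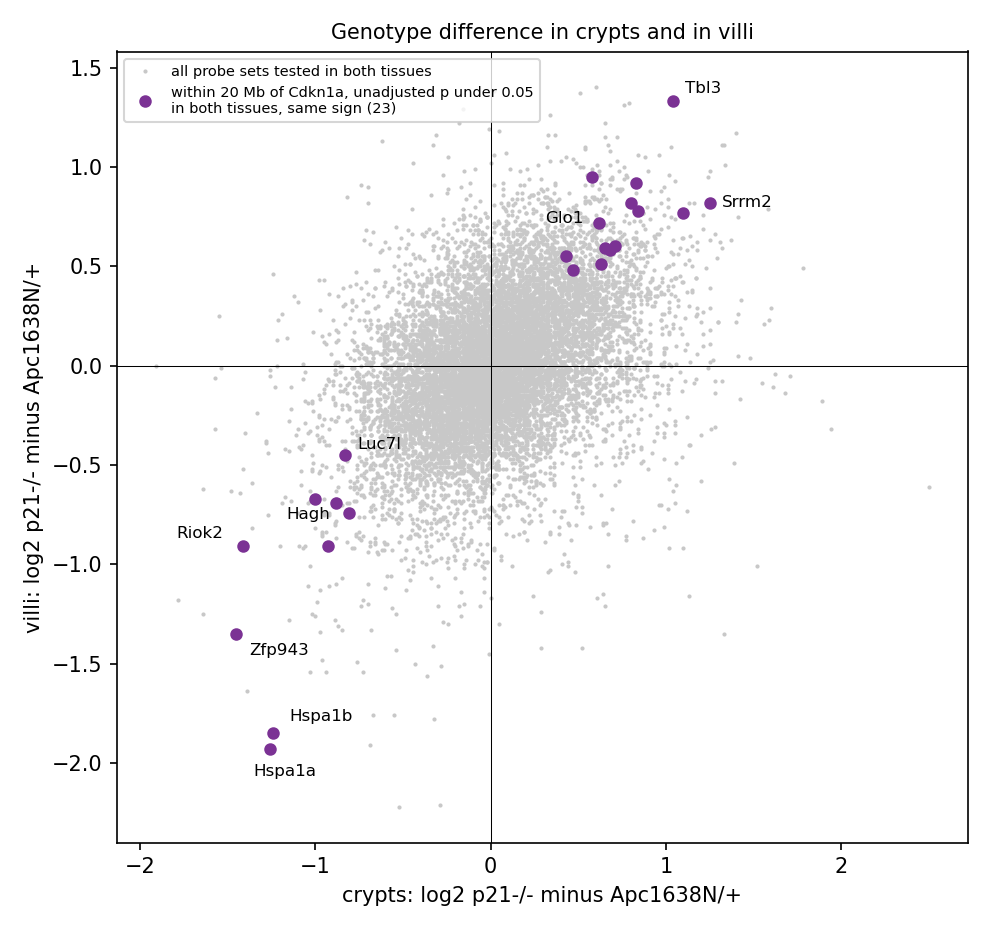
Log2 difference p21-/- minus Apc1638N/+ of each probe set in crypts (horizontal) and villi (vertical), with all probe sets tested in both tissues in grey. The 23 purple points lie within 20 Mb of Cdkn1a and had an unadjusted p under 0.05 with the same sign in both tissues; Zfp943 and Hspa1a are at the lower left, and Tbl3 at the upper right.

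For the transcriptome as a whole the genotype difference was not shown to depend on the tissue. The test of the difference between crypts and villi called 0 of 11839 probe sets with limma (598, or 5.05%, at an unadjusted p under 0.05). It treated crypt and villus arrays as unpaired, which the labels do not settle. In villi 10 of 16221 probe sets were called (0.0616%), and 1618 (9.97%) had an unadjusted p under 0.05. Nabp1 differed by -1.91 in crypts and -0.00 in villi, and that contrast between tissues was -1.90 ± 0.42 (adjusted p = 0.317). Zfp943, by comparison, gave -0.10 ± 0.30 and Tbl3 -0.29 ± 0.33.

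Some transcripts were measured in 1 genotype and blank in the other, which the fitted test cannot reach. On all 4 Apc1638N/+ and none of the p21-/- crypt arrays there were 49 probe sets (0.109% of 45037), and 13 (0.0289%) had the reverse pattern. Among the 49 were Cdkn1a (mean 9.96), Wdr36 (9.40), Gpn3 (9.12) and the phosphodiesterase gene Pde3b (9.05), with Fcer1g, a signalling chain of immune receptors, at 8.67. Among the 13 were Meaf6, a subunit of histone acetyltransferases (8.46), and Gdap1 (7.96). Neither kept this pattern in villi. There Gdap1 was blank on all 4 p21-/- arrays and measured on all 4 Apc1638N/+ arrays (mean 7.44), and Meaf6 differed by 0.08. Leaving out 1 array gave 56 to 192 and 16 to 40. A left-out array loosens the rule, so these counts cannot fall below 49 and 13 and do not measure stability. A blank is not a level of 0, and Apc1638N/+ arrays 3 and 4 had more measured probe sets than any p21-/- array.

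The lists of crypt biology were then read one by one, 40 lists of which 38 had a tested gene. Each gene is represented by its tested probe set of highest mean, giving 7377 genes, of which 18 were called (0.244%), 12 higher (0.163%) and 6 lower (0.0813%), and whose median difference was 0.05. None of the 620 distinct list genes was called, 33 were higher and 22 lower at an unadjusted p under 0.05, and the smallest adjusted p was 0.0684. Over all 7377 genes 10.1% were higher and 5.45% lower at that level (15.6% in all), and 2.74% and 1.44% lay higher and lower without overlap. Values below therefore describe genes that did not pass the test. Without Apc1638N/+ array 3, 21 of the 620 list genes were called, beside 498 of all 7377 genes. Without any other single array the counts were 0 to 5 list genes and 1 to 69 of all genes. List genes called without array 3 that are described below are noted there.

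Paneth cells, which secrete antimicrobial proteins into the crypt, gave the list farthest above the median of all genes. All 9 tested genes were above 0, with a median of 1.01, and 5 had an unadjusted p under 0.05. Pla2g2a, a secreted phospholipase, was at 10.18, 10.03, 10.04 and 9.23 in p21-/- crypts and 9.09, 9.22, 8.51 and 7.79 in Apc1638N/+ crypts (1.22 ± 0.31, adjusted p = 0.0788). Those groups touch without overlapping, and wild-type crypts averaged 7.88. Itln1, the intelectin of Paneth granules, was at 14.73, 15.15, 14.97 and 14.52 against 14.61, 13.92, 13.75 and 11.75 (1.33 ± 0.51, adjusted p = 0.209). Ang4, an antimicrobial ribonuclease, was at 14.54, 15.22, 15.01 and 14.36 against 14.48, 14.21, 14.03 and 11.83 (1.14 ± 0.54, adjusted p = 0.304). In both genes Apc1638N/+ array 4 lies far below the other 3 arrays of its group.

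Apc1638N/+ array 4 was the lowest of the 8 arrays for Lyz1 and Defa39 too. Lysozyme, Lyz1, was at 16.36, 16.47, 16.53 and 16.19 in p21-/- crypts and 16.47, 16.11, 16.47 and 14.73 in Apc1638N/+ crypts (0.44 ± 0.40). The defensin gene Defa39 was at 15.85, 16.04, 16.11 and 15.91 against 15.58, 15.45, 15.59 and 13.81 (0.87 ± 0.49). Nupr1 differed by 1.40 ± 0.53, Mmp7, the protease that activates defensins, by 0.86 ± 0.38, and Mptx1 by 1.01 ± 0.66. Without array 4 the median of the Paneth list was 0.49, Pla2g2a differed by 0.93 (adjusted p = 0.442) and Itln1 by 0.75 (adjusted p = 0.768). Ang4 then differed by 0.54, Lyz1 by 0.04, Defa39 by 0.44, Mmp7 by 0.40, Mptx1 by 0.49 and Nupr1 by 0.87. Without Apc1638N/+ array 3 the median was 1.03 and Pla2g2a was called (1.17, adjusted p = 0.0363). In villi, where 6 of the genes were tested, the list median was -0.43. The summed level of the list, on the log2 scale, was 17.58 to 17.95 in p21-/- crypts and 15.72 to 17.65 in Apc1638N/+ crypts. In such bulk samples fewer cells of a type and less RNA per cell cannot be told apart.

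Clps and Pnliprp2, colipase and a pancreatic lipase-related protein, behaved alike on the arrays. Clps was at 12.35, 13.26, 12.90 and 12.71 in p21-/- crypts and 12.32, 11.61, 11.60 and 9.20 in Apc1638N/+ crypts (1.62 ± 0.45, adjusted p = 0.0928). Pnliprp2 was at 11.96, 12.13, 12.27 and 12.13 against 11.10, 10.65, 10.61 and 8.38 (1.94 ± 0.55, adjusted p = 0.0977). Neither overlaps, and array 4 is again the lowest. Of the 17 pancreatic genes listed, 7 were blank on all 8 arrays and 4 were tested, and the other tested genes, Cela1 and Reg1, differed by -0.08 and -0.09. The summed level of the 4 was 14.06 to 15.45 in p21-/- and 13.80 to 15.24 in Apc1638N/+ crypts. Without Apc1638N/+ array 4 the differences were 0.96 for Clps and 1.34 for Pnliprp2 (adjusted p = 0.551 and 0.52), and without array 3 both were called, at 1.76 and 2.08 (adjusted p = 0.0279 and 0.0331).

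**Figure D4:**
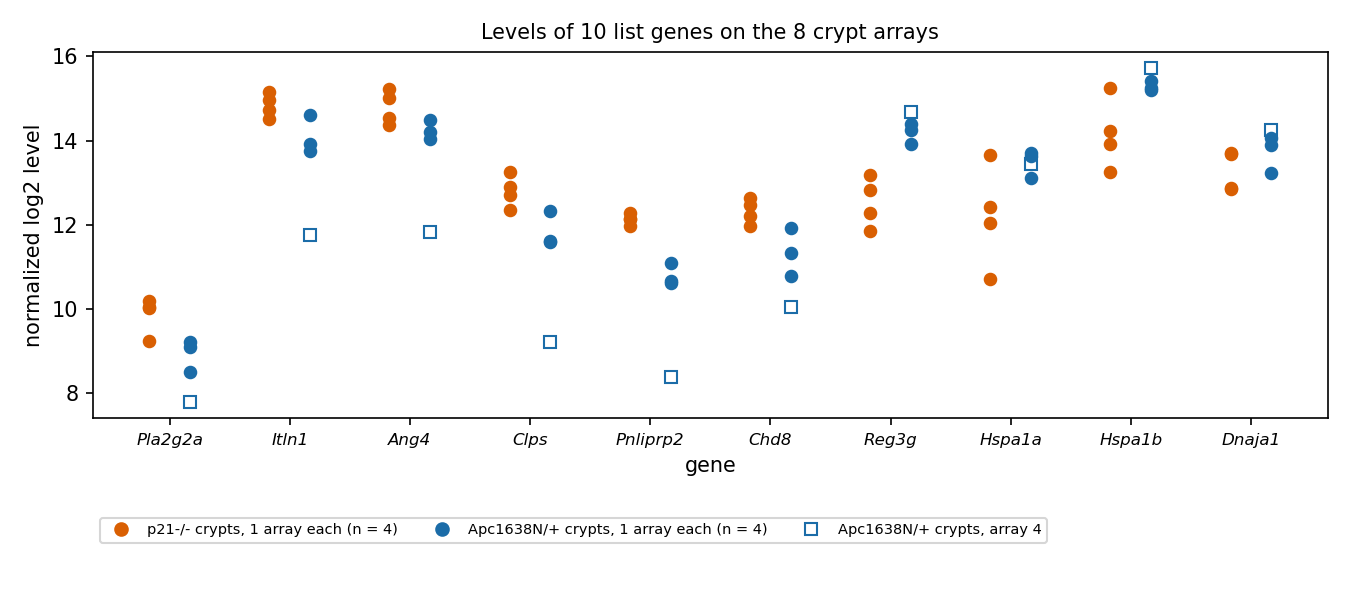
Normalized log2 levels of 10 list genes on the p21-/- arrays (orange) and Apc1638N/+ arrays (blue), with Apc1638N/+ array 4 as an open square. Array 4 is the lowest point for Pla2g2a, Itln1, Ang4, Clps, Pnliprp2 and Chd8, and the highest Apc1638N/+ point for Reg3g, Hspa1b and Dnaja1.

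Atoh1 and Ascl2, picked here after their values were seen, were the transcription factors of the secretory and stem cell lists with an unadjusted p under 0.05 and higher values, beside Elf3. Elf3 was called without Apc1638N/+ array 3 (1.17, adjusted p = 0.018) and differed by 0.44 without Apc1638N/+ array 4 (adjusted p = 0.774). Atoh1, which commits cells to the secretory lineages, was at 9.40, 8.88, 9.43 and 9.56 in p21-/- crypts and 8.92, 9.04, 8.50 and 7.56 in Apc1638N/+ crypts (0.82 ± 0.27, adjusted p = 0.15). Without Apc1638N/+ array 4 it differed by 0.50 (adjusted p = 0.665), and the 11 tested genes of its list had a median of 0.08, with 7 above 0. Ascl2, a Wnt-driven factor of stem cells, was at 7.86, 7.87, 8.55 and 8.60 against 7.67, 6.97, 7.68 and 6.94 (0.90 ± 0.40, adjusted p = 0.282). Its arrays do not overlap. The stem cell list had its 12 tested genes at a median of -0.12, with Lgr5 at 0.05 ± 0.36 and Olfm4 at -0.43 ± 0.52. Goblet cell genes had a median of 0.24 over 11 genes, as for Muc2 (0.24 ± 0.28), and enteroendocrine genes -0.22 over 11, with Gip at -0.77 ± 0.46.

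Wnt signalling and the cell cycle, the processes that Apc and p21 are known for, had no called gene in these lists. The 14 Wnt target genes had a median of 0.02, with Axin2 at -0.05 ± 0.39 and Myc at -0.66 ± 0.46. Of 15 receptors and destruction complex members, Pygo2, a nuclear cofactor of beta-catenin, differed by 0.90 ± 0.26 (adjusted p = 0.111) and Axin1 by 0.68 ± 0.27 (adjusted p = 0.221). Pygo2 was at 10.27, 11.06, 10.42 and 10.29 in p21-/- crypts and 9.76, 10.04, 9.61 and 9.01 in Apc1638N/+ crypts, without overlap. Both were called without Apc1638N/+ array 3, Axin1 at 1.07 and Pygo2 at 0.91 (adjusted p = 0.0107 and 0.0489), while without Apc1638N/+ array 1 Axin1 differed by 0.29 (adjusted p = 0.592). The 35 mitosis genes had a median of -0.05 and none had an unadjusted p under 0.05, with Mki67 at -0.08 ± 0.41 and Cdk1 at 0.09 ± 0.34. The 28 replication genes had a median of 0.09, with Pcna at 0.03 ± 0.20 and the polymerase gene Pold1 at 0.94 ± 0.34 (adjusted p = 0.198).

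Genes that stand next to p21 in its pathway were also close to the median of all genes. The 13 p53 target genes had a median of 0.09 and none had an unadjusted p under 0.05, with Mdm2, the ligase that degrades p53, at 0.36 ± 0.36 and Ccng1 at -0.02 ± 0.20. Among the other Cdk inhibitors Cdkn1b, which encodes p27, was at 10.48, 10.04, 9.68 and 8.25 in p21-/- crypts and 9.61, 11.10, 9.87 and 11.44 in Apc1638N/+ crypts (-0.89 ± 0.41, adjusted p = 0.29). Those arrays overlap widely, and the difference was -0.43 without p21-/- array 4 and -0.58 without Apc1638N/+ array 4 (adjusted p = 0.678 and 0.802). Cdkn2c differed by 0.23 ± 0.21 and Cdkn2b by -0.08 ± 0.16. The 16 G1 cyclins, kinases and Rb proteins had a median of 0.03, with Ccnd1 at 0.19 ± 0.31 and Rb1 at -0.35 ± 0.18. With SEs of 0.2 to 0.5 for most single genes, small changes would not be detectable here.

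**Figure D5:**
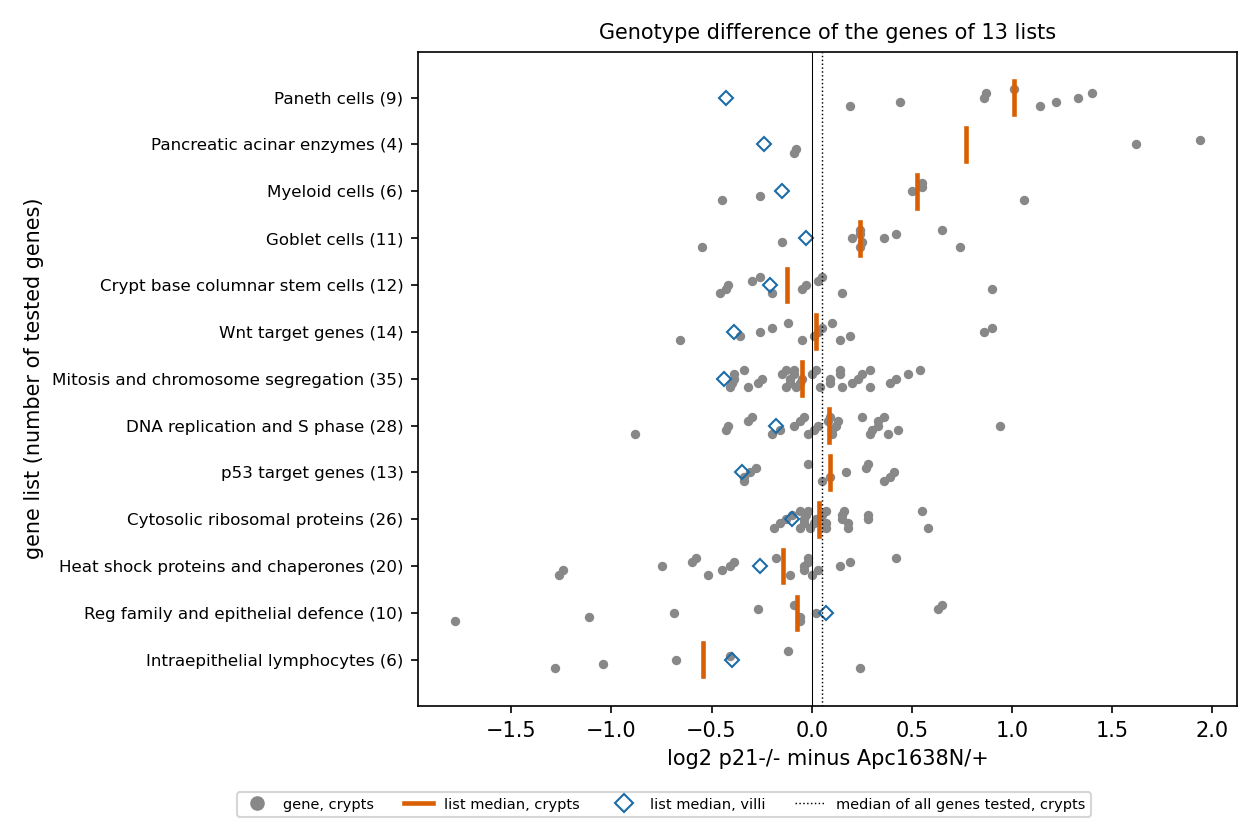
Log2 difference p21-/- minus Apc1638N/+ of each tested gene of 13 lists in crypts (grey points), with the list median in crypts (orange bar) and in villi (open diamond); the dotted line is the median of all 7377 genes, 0.05. Paneth genes lie highest, with a median of 1.01, while mitosis and p53 target genes centre near 0.

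Several heat shock genes had lower values in p21-/- than in Apc1638N/+ crypts and villi, without passing the test. These chaperones refold proteins and are switched on by heat shock factor, which binds repeats of GAA and its reverse complement TTC. Of 20 tested genes 5 were lower at an unadjusted p under 0.05 and 0 higher, with a list median of -0.14. The 250 bases before the start of Hspa1a, Hspa1b and Dnaja1, picked because each holds GAANNTTC, follow, 5′ to 3′ (RefSeq, GRCm38.p6). That motif reads the same on both strands and is in capitals.
Hspa1a, chr17:34972157-34972406, - strand: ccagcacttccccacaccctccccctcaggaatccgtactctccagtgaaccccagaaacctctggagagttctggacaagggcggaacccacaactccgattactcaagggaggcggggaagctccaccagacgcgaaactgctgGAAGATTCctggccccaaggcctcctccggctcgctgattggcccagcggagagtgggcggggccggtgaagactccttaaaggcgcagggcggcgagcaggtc
Hspa1b, chr17:34959239-34959488, - strand: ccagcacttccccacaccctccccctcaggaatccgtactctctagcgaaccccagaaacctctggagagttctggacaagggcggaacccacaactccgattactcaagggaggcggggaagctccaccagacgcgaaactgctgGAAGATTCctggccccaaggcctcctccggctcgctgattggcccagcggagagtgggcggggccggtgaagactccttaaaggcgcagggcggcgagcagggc
Dnaja1, chr4:40722218-40722467, + strand: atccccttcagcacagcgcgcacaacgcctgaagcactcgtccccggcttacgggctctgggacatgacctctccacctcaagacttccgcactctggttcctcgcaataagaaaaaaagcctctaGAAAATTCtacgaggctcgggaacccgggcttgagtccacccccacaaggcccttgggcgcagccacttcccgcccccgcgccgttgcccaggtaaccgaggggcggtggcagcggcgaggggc
The Hspa1a and Hspa1b windows are the same at 247 of 250 positions. Dnaja1 has 3 starts in the table and the most upstream was taken, and the window of Dnajb1 holds no such match. The motif is in 6.69% of all 32851 windows of this length, in a window of 7.73% of all 27025 genes, and in a window of 6 of the 18 tested heat shock genes that the table holds. Dnajb1 and Hsp90aa1 are not among those 6.

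Hspa1b, an inducible chaperone of the Hsp70 class, was at 14.22, 13.25, 15.26 and 13.92 in p21-/- crypts and 15.25, 15.41, 15.20 and 15.72 in Apc1638N/+ crypts (-1.24 ± 0.54, adjusted p = 0.266). Hspa1a was at 12.43, 10.72, 13.66 and 12.04 against 13.63, 13.10, 13.71 and 13.45 (-1.26 ± 0.53, adjusted p = 0.252). In both genes p21-/- array 3 lay among the Apc1638N/+ arrays and the other 3 below them. Wild-type crypts averaged 14.41 for Hspa1b and 12.49 for Hspa1a, nearer p21-/- crypts (14.16 and 12.21) than Apc1638N/+ crypts (15.40 and 13.47). Wild-type villi averaged 11.99 for Hspa1b and 9.40 for Hspa1a, below p21-/- villi (12.56 and 10.21) and Apc1638N/+ villi (14.41 and 12.14). The copies are nearly identical, so their probe sets may bind both transcripts, and both lie within 20 Mb of Cdkn1a. The co-chaperones Dnajb1 and Dnaja1 lie on other chromosomes and differed by -0.60 ± 0.24 and -0.58 ± 0.21 (adjusted p = 0.23 and 0.189), and Hsp90aa1 by -0.52 ± 0.25 without overlap (adjusted p = 0.318). In villi the differences were -1.93 for Hspa1a, -1.85 for Hspa1b, -0.77 for Dnajb1, -0.68 for Dnaja1 and -0.53 for Hsp90aa1. Without p21-/- array 2, the lowest of the 8 for both, Hspa1a differed by -0.76 and Dnajb1 by -0.38 in crypts. Of these genes, Dnaja1 was called in crypts without Apc1638N/+ array 3 (-0.79, adjusted p = 0.0239).

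Reg3g and Reg3b, lectins that bind bacteria at the epithelial surface, were lower in value in p21-/- crypts. Reg3g was at 12.83, 12.27, 11.84 and 13.17 against 13.91, 14.25, 14.39 and 14.68 in Apc1638N/+ crypts, without overlap (-1.78 ± 0.61, adjusted p = 0.169). Reg3b was at 15.30, 14.07, 14.43 and 14.54 against 15.57, 15.92, 15.21 and 16.08, with 1 array of overlap (-1.11 ± 0.40, adjusted p = 0.189). Reg3a differed by -0.06 ± 0.57, and the median of the 10 tested genes of this list was -0.07. Without Apc1638N/+ array 4, Reg3g differed by -1.65 and Reg3b by -0.98.

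Markers of immune and other cells were sparse. Of 22 lymphocyte genes 6 were tested, 3 were blank on all 8 arrays, and the median was -0.55, led by Klrd1 (-1.28 ± 0.52) and Ptprc, the leukocyte antigen CD45 (-1.04 ± 0.47, or -0.64 without p21-/- array 3). The summed level of the 5 measured everywhere was 11.90 to 12.82 in p21-/- crypts and 11.76 to 14.44 in Apc1638N/+ crypts, the highest being Apc1638N/+ array 3, without which the list median was 0.08. Of 18 myeloid genes 6 were tested, with a median of 0.53 and Lyz2 at 1.06 ± 0.39 (adjusted p = 0.194). Lyz2 resembles Lyz1 closely, was at 10.17 on Apc1638N/+ array 4 and 12.30 or more on the other Apc1638N/+ arrays, and without array 4 Lyz2 differed by 0.46 and the myeloid median was 0.04. No fibroblast, smooth muscle or endothelial gene could be tested, and 10 of 18 and 9 of 13 of those listed were blank on all 8 arrays.

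Of the remaining genes, Chd8 had the smallest adjusted p of any list gene. Chd8, a chromatin remodeller that binds beta-catenin, was at 12.47, 12.63, 12.20 and 11.97 in p21-/- crypts and 11.33, 11.93, 10.78 and 10.04 in Apc1638N/+ crypts (1.30 ± 0.33, adjusted p = 0.0684). The groups touch without overlapping, and the difference without Apc1638N/+ array 4 was 0.97 (adjusted p = 0.442) and without array 3 it was called (1.22, adjusted p = 0.0346). Slc28a3, a nucleoside carrier, differed by -1.37 ± 0.34 (adjusted p = 0.0816) and the immediate early gene Ier3 by -0.94 ± 0.25 (adjusted p = 0.0831). Lists of basic cell machinery stayed near the median of all genes, with 0.04 for 26 cytosolic ribosomal proteins, 0.02 for 36 respiratory chain genes, 0.12 for 31 proteasome subunits and -0.03 for 19 cholesterol synthesis genes. The 5 class II MHC genes, H2-Aa among them (-0.81 ± 0.60), were all below 0 with a median of -0.32 and none at an unadjusted p under 0.05.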

How the data were processed

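The values used were the deposited log2 signal values of 45101 probe sets on 47 arrays, made by the authors with GCOS, per the submitters' processing notes; its version and the array design's build are not given in the sources used here. Of all cells 55.2% were blank, for a reason not given in the sources used here, and blanks were kept. Arrays were quantile normalized on the 8350 probe sets with no blank, and other values were placed by interpolation. Probe sets above the array median on at least 3 arrays (30287) were kept, and those measured on at least 3 arrays in both groups were tested. Symbols came from the platform annotation updated through RefSeq: 34945 probe sets had 1 symbol, 932 several and 9160 none, and 64 were controls. Tests used limma 3.58.1 in R 4.3.3 (one-way model over 12 groups, trend in the prior variance, Benjamini-Hochberg adjustment over all probe sets tested, call at 0.05), as the design stated no test. The procedure was tested on simulated data with independent noise for each value. Those data hold no array-wide effects, so that check cannot speak to calls that depend on single arrays. Residuals of same-numbered p21-/- and Apc1638N/+ crypt arrays correlated at 0.05, 0.11, -0.21 and 0.02, and the main test did not pair them. Crypt arrays were not checked against villus arrays in this way, and a batch shared by same-numbered arrays was not tested. The number of arrays limits the precision. Array measures were compared by exact permutation.

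The named called genes were by rule those without overlap and with a mean above 9.92 (Dnajc17, Pabpn1, Rogdi, Sertad2 and Nufip2) and those within 20 Mb of Cdkn1a or Apc (Zfp943, Tbl3, Luc7l, Riok2 and Pura), besides Cdkn1a and Apc. All other genes were named after their values were seen. The members and lists were chosen with earlier results of these data known. Scaling, filters, blanks, covariates, variance settings and left-out arrays were varied.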

Additional observations from a re-analysis of the deposited data

Results flagged for a closer look

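The p21-/- crypt level of Pabpn1 on array 2 was 15.42, while the other 3 arrays were at 14.32 to 14.37, a gap of 0.95 of the group's range. Of 65 groups of 4 arrays examined this was the only 1 whose gap passed the threshold. Chance passes it in about 1 of 20 groups, so 1 such group in 65 is no more than chance would give.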

How the results depend on the processing

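The count of 28 called probe sets depended on the processing. It was 5 with the deposited scaling (Dnajc17, Pabpn1, Nufip2, Zfp943 and Nabp1) or with quantile normalization over the 8 arrays, 3 with the 6 crypt groups alone, 3 with a filter on the mean level, and 0 with the 8 arrays alone or with array weights in limma (606 and 1173 at an unadjusted p under 0.05). As a covariate, the number of measured probe sets left 2, the spike-in level 10 and the crypt-villus score 47 (all 28 kept), and the 18S level, added after seeing the data, 60, of which 10 were among the 28. Blanks set to the lowest value gave 481 (166 higher, 315 lower, 18 of the 28), 6 of them list genes, and turned Ankra2 to -0.05. With the replicate number as a block 108 were called, 27 of them among the 28, and 2 list genes. The labels do not say whether the numbers stand for more than a name of the array. Leaving out 1 array gave 3 to 777 probe sets, 0 to 21 list genes, 0 to 3 for crypts against villi, and 56 to 192 and 16 to 40 for measurement in 1 genotype only. The counts for measurement in 1 genotype could not fall, as a left-out array loosens that rule. Leaving out Apc1638N/+ arrays 3 and 4 together, added after seeing the data, gave 158 (110 higher, 48 lower) and 3 list genes. Measurement on at least 3 arrays against at most 1 gave 1255 and 292. The cause of these changes was not tested. Signal limits low probe sets, whose blanks are not levels.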
